A study of Mus musculus with 6 samples.

Results

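The S100 genes of retrovirally transduced mouse blood progenitors were examined, taken as every gene of the expression table whose symbol starts with S100 followed by a lower case letter. The rule found 9 of the 12161 genes measured: S100a1, S100a4, S100a6, S100a8, S100a9, S100a10, S100a11, S100a13 and S100pbp. The first 8 encode S100 proteins. S100pbp encodes a nuclear protein named in human for binding S100P and is not itself an S100 protein; it is kept because the rule takes it. The RefSeq annotation lists 20 genes with such symbols, and the other 11, among them S100a3, S100a5, S100a14, S100a16, S100b and S100g, were not analysed here.

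The study sequenced mRNA from LSK cells, the bone marrow fraction low in lineage markers and positive for Sca1 and Kit that holds blood stem cells and early progenitors. Cells of C57BL/6 mice carried the retrovirus MIG-Hhex (3 libraries) or MIG, the vector without Hhex (3 libraries), and were recognised by GFP; the labels give the genotype as Hhex for the first and wild-type for the second. Hhex is a homeobox transcription factor of early blood cells. Both groups were sorted as LSK cells, transduced on coated plates, cultured for 2 days with the cytokines given as mL-3, mIL-6, mSCF and mFlt-3, and sorted again for GFP before RNA extraction. The libraries are thus of cultured LSK progeny, in which Hhex is expressed from a retroviral vector. Each group holds the replicates WT3, WT691 and WT703, which the design text calls biological replicates; whether a replicate is 1 mouse or several is not given in the labels. Both WT3 libraries were run on flow cell C3RJFACXX and the other 4 on C5LWPANXX.

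S100 proteins are small calcium-binding proteins with EF-hand motifs that form dimers and, on binding calcium, expose a surface that holds target proteins. S100a8 and S100a9 together form calprotectin, a major cytosolic protein complex of neutrophils and also a product of monocytes, which takes up zinc and manganese and acts as a danger signal when released. Others of the family work inside the cell with annexins, non-muscle myosin or ubiquitin ligase adaptors, and in mouse nearly all of the genes lie in a cluster shared with genes of skin differentiation.

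Of the 8 S100 protein genes, all lie on chromosome 3 of GRCm38 (mm10), in a stretch of 3.05 Mb. S100a1 (90511034 to 90514330) and S100a13 (90514233 to 90524581) overlap by 98 bases. S100a4 follows at 90603770 to 90606045, S100a6 at 90612894 to 90614414, S100a8 at 90669071 to 90670034 and S100a9 at 90692630 to 90695721. After a gap of 2825 kb come S100a11 at 93520496 to 93526288 and S100a10 at 93555117 to 93564645. S100pbp lies on chromosome 4, from 129148002 to 129189665. Promoter windows were found in RefSeq (GRCm38.p6) for 8 of the 9 genes, all but S100a10. The 250 bases before the start site are shown for the calprotectin genes S100a8 and S100a9 and for S100a4 and S100a11, because S100a8 and S100a9 have the highest levels and S100a9, S100a4 and S100a11 passed the test. Each is written from 5′ to 3′ on the strand of its gene. Capitals mark matches to 3 motifs searched on both strands: TTGCNNAA, a C/EBP-like motif, GAGGAA, a core bound by ETS factors such as PU.1, and ATTAAA, a core bound by Hhex. The motifs do not overlap each other in these windows.
S100a8, chr3:90668821-90669070, plus strand: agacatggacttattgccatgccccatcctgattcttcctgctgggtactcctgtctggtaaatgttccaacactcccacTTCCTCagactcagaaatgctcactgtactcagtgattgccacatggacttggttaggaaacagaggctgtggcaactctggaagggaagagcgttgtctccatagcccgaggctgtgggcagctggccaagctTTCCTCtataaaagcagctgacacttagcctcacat
S100a9, chr3:90695722-90695971, minus strand: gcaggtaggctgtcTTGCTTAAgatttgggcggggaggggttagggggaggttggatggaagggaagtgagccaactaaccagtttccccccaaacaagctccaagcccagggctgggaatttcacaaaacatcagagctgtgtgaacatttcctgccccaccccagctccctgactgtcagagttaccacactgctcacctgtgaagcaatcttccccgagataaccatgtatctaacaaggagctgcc
S100a4, chr3:90603520-90603769, plus strand: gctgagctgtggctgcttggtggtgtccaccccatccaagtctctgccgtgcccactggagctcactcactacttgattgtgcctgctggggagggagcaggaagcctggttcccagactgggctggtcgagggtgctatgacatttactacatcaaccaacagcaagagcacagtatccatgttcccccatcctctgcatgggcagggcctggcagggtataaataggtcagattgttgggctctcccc
S100a11, chr3:93520246-93520495, plus strand: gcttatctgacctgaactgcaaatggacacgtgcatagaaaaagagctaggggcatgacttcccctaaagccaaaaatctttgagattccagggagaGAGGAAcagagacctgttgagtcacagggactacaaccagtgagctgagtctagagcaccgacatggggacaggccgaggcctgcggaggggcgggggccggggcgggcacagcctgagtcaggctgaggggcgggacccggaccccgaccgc
S100a8 held GAGGAA on the opposite strand, where it reads TTCCTC, at positions −170 and −36 from the start site. S100a11 held it on its own strand at position −153, and S100a9 held TTGCTTAA at position −236. S100a4 held none of the 3 motifs, and ATTAAA occurred only in the window of S100a6 among the 8 genes. Over all 32851 promoter windows of this length, 9.56% held TTGCNNAA, 23.3% held GAGGAA and 12.7% held ATTAAA; over the 12324 windows of genes in the expression table the shares were 7.68%, 22.5% and 7.24%. These matches are a description of the letters and not of binding.

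In the libraries, S100a8 and S100a9 stood among the highest transcripts of the table, and MIG-Hhex cells held more S100a9, S100a4 and S100a11 than MIG cells. S100a9 was 2.17-fold, S100a4 1.63-fold and S100a11 1.46-fold higher (limma, adjusted over all genes). No S100 gene was lower by the test, at an unadjusted p under 0.05 either. S100a8 had a positive difference in each replicate pair but missed the threshold. In all 3 pairs 5 of the 9 S100 genes were higher, against 27.5% of all genes, and 0 were lower, against 32.3%. In all, 3 of the 9 S100 genes rose, against 9.44% of the 12161 genes measured, and 0 fell, against 8.52% (limma, adjusted p under 0.05); in either direction 18.0% of all genes were called. The median log2 difference was 0.27 over the 9 S100 genes and −0.02 over all genes. Hhex itself checks the labels: its log2 value was 7.61, 9.34 and 9.06 in the MIG-Hhex libraries of WT3, WT691 and WT703, against 5.18, 5.05 and 5.13 in the MIG libraries.

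Before these differences are read, the WT3 libraries must be set apart from the other 4, since they differ from them in both groups. Ly6a, which encodes the Sca1 protein used in the sort, lay at 3.55 in the MIG-Hhex and 3.18 in the MIG library of WT3, against 6.21 and 5.89 in the other MIG-Hhex and 6.25 and 6.08 in the other MIG libraries. Kit lay between 4.44 and 4.77 in MIG-Hhex and between 4.62 and 4.86 in MIG libraries, so the 2 sort markers were present in each library. The WT3 libraries also gave higher values to short genes: across 11700 genes the correlation of the value with log2 exonic length was −0.29 in the MIG-Hhex and −0.31 in the MIG library of WT3, and between −0.20 and −0.22 in the other 4. The 8 S100 protein genes are short, with 486 to 809 exonic bases, against a median of 3274 for all genes. The fit held a term for the flow cell, set because the libraries were run on 2 flow cells that each held both vectors. The difference within each replicate is shown for every S100 gene.

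Over all 6 libraries S100a9 had the largest fold change of the S100 genes, but without the WT3 libraries it stood at 0.90 and S100a4 at 0.95. The log2 value of S100a9 was 10.25, 10.92 and 10.71 in the MIG-Hhex libraries of WT3, WT691 and WT703, against 8.71, 9.70 and 10.13 in the MIG libraries of the same replicates. All 3 MIG-Hhex values lay above all 3 MIG values, the MIG library of WT3 being lowest. The log2 fold change was 1.12 (SE 0.18, 95% interval 0.69 to 1.54, limma adjusted p = 0.0100), and the difference was 1.55 in WT3, 1.21 in WT691 and 0.59 in WT703. S100a9 ranked 28th, 9th and 10th among the 12161 values of the MIG-Hhex libraries, against 144th, 40th and 21st in the MIG libraries. It was the single S100 gene to pass in all 9 fits with one library or one replicate removed (limma adjusted p up to 0.0476). The fits without the MIG-Hhex library of WT3, without its MIG library and without both gave the same log2 fold change, 0.90. A single WT3 library is taken up by the flow cell term. All tallies of left-out fits thus count this comparison 3 times.

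S100a8, the other calprotectin subunit, was the S100 gene with the highest mean level. It lay at 10.68, 11.03 and 10.68 in the MIG-Hhex libraries and at 9.88, 10.48 and 10.58 in the MIG libraries. The groups did not overlap, yet the closest values of the 2 groups were 0.10 apart, both in WT703. All 3 MIG-Hhex values lay above all 3 MIG values for 3 of the 9 S100 genes, S100a8, S100a9 and S100a4, against 10.2% of all genes. The log2 fold change of S100a8 was 0.48 (SE 0.15, 95% interval 0.13 to 0.83), 1.40-fold on the linear scale, and did not pass (limma adjusted p = 0.0666). With the replicate number as a block in place of the flow cell it passed (limma adjusted p = 0.0486), as it did without the MIG-Hhex library of WT703 (0.0397). In rank it was 16th, 7th and 12th in MIG-Hhex libraries and 41st, 12th and 13th in MIG libraries.

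**Figure D1:**
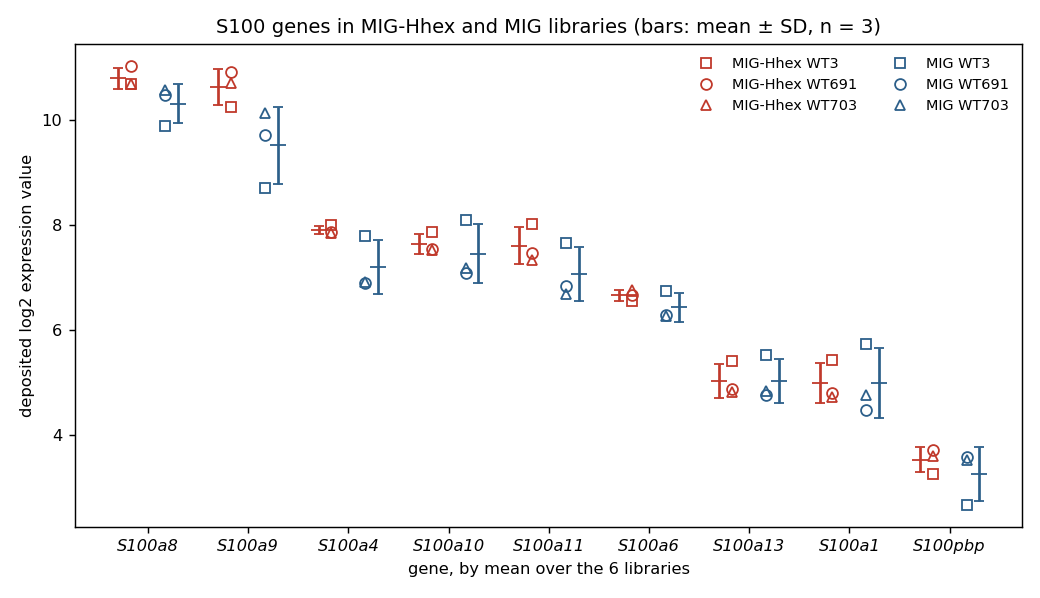
Deposited log2 expression values (vertical axis) of the 9 S100 genes (horizontal axis, ordered by mean level) in 6 libraries; symbols mark the replicate, red the MIG-Hhex and blue the MIG libraries, and bars give the mean ± SD of 3. S100a9 lies between 10.25 and 10.92 with MIG-Hhex and between 8.71 and 10.13 with MIG, and the WT3 libraries (squares) are the highest of their group for S100a1, S100a4, S100a10, S100a11 and S100a13.

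Because S100a8 and S100a9 work as a dimer, their ratio within each library was compared as well; it does not depend on how libraries were scaled to each other. The log2 value of S100a9 minus that of S100a8 was −0.43, −0.11 and 0.03 in the MIG-Hhex libraries of WT3, WT691 and WT703, against −1.17, −0.78 and −0.45 in the MIG libraries. The MIG-Hhex mean was −0.17 ± 0.24 and the MIG mean −0.80 ± 0.36 (SD, n = 3 each), a difference of 0.63. As a linear ratio, S100a9 stood at 0.744, 0.928 and 1.02 times S100a8 in MIG-Hhex libraries and at 0.443, 0.584 and 0.732 times in MIG libraries. The groups did not overlap, and the difference was positive in 3 of 3 replicates (0.75, 0.67 and 0.48). The exact permutation test gave a two-sided p of 0.10, the smallest that 3 against 3 libraries allow. Summed on the linear scale, S100a8 and S100a9 reached 2860, 4026 and 3318 in the MIG-Hhex libraries of WT3, WT691 and WT703, against 1359, 2265 and 2644 in the MIG libraries. They made up 75.6%, 84.2% and 81.8% of the summed level of the 8 S100 protein genes in the MIG-Hhex libraries, and 60.1%, 82.1% and 84.1% in the MIG libraries. Within WT703 the share was thus lower with MIG-Hhex than with MIG.

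**Figure D2:**
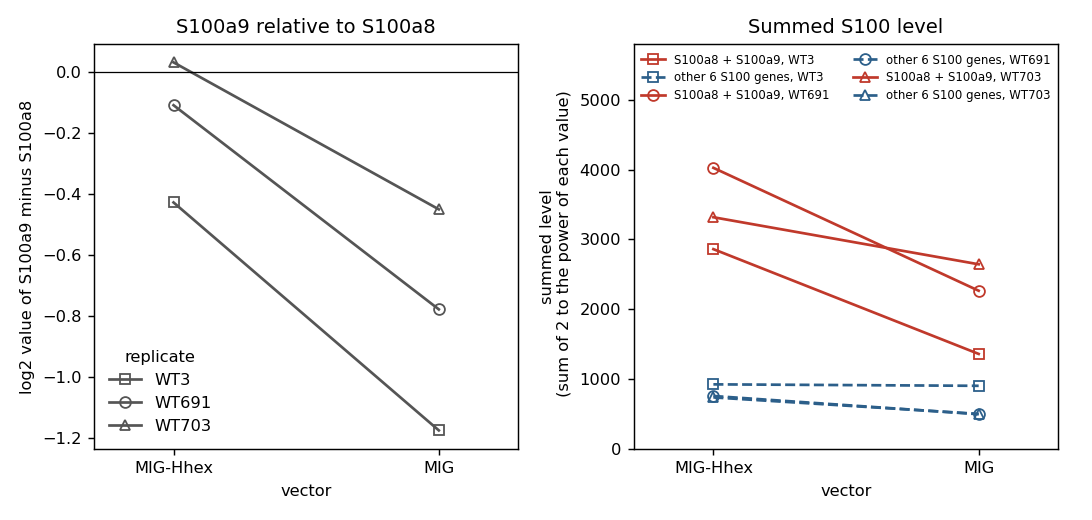
Left, log2 value of S100a9 minus S100a8 in each library; right, summed linear level of S100a8 and S100a9 (solid) and of the other 6 S100 protein genes (dashed). Lines join the MIG-Hhex and MIG libraries of a replicate; the ratio is higher with MIG-Hhex in all 3 replicates, and the calprotectin sum lies between 2860 and 4026 with MIG-Hhex and between 1359 and 2644 with MIG.

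S100a4, which binds non-muscle myosin and is known for its role in cell motility, rose. Its log2 value was 7.99, 7.87 and 7.84 in the MIG-Hhex libraries of WT3, WT691 and WT703, against 7.79, 6.89 and 6.91 in the MIG libraries. The MIG-Hhex values lay close together, and the MIG library of WT3 lay just below the lowest of them. The log2 fold change was 0.70 (SE 0.15, 95% interval 0.35 to 1.05, limma adjusted p = 0.0227), with differences of 0.20, 0.98 and 0.92 in the 3 replicates. The call held in 3 of the 9 left-out fits, those without a library of WT3 or without both, which share the estimate 0.95. The call was lost without any library of WT691 or WT703 (limma adjusted p up to 0.141).

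S100a11, a partner of annexin A1, had log2 values of 8.01, 7.47 and 7.34 in the MIG-Hhex libraries, against 7.66, 6.84 and 6.69 in the MIG libraries. The groups overlapped, since the MIG library of WT3 lay above the MIG-Hhex libraries of WT691 and WT703, but within each replicate the MIG-Hhex library was higher, by 0.35, 0.63 and 0.65. It rose by 0.54 on the log2 scale (SE 0.08, 95% interval 0.34 to 0.74, limma adjusted p = 0.00937). The call did not hold when replicate WT703 was removed (limma adjusted p = 0.0591), and it held in the other 8 left-out fits. RefSeq also lists a pseudogene, S100a11-ps, on chromosome 12; whether the 2 share reads was not tested.

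S100a6 (calcyclin, a binder of annexin A11 and of the ubiquitin ligase adaptor Cacybp) and S100a10 (p11, the partner of annexin A2, which does not bind calcium) gave differences of opposite sign on the 2 flow cells. S100a6 lay at 6.54, 6.66 and 6.76 in the MIG-Hhex libraries of WT3, WT691 and WT703, against 6.74, 6.28 and 6.26 in the MIG libraries. The differences were −0.19 in WT3, 0.39 in WT691 and 0.50 in WT703. S100a10 lay at 7.86, 7.54 and 7.51 in MIG-Hhex libraries, against 8.10, 7.08 and 7.17 in MIG libraries, with differences of −0.24, 0.46 and 0.34. For both genes the highest MIG value came from WT3 and the groups overlapped. Over all 6 libraries the log2 fold changes were 0.23 for S100a6 (95% interval −0.08 to 0.54, limma adjusted p = 0.251) and 0.19 for S100a10 (−0.12 to 0.50, limma adjusted p = 0.345). Within flow cell C5LWPANXX alone both passed, S100a6 at 0.44 and S100a10 at 0.40 (limma adjusted p = 0.0214 and 0.0305). Flow cell C3RJFACXX holds only replicate WT3, so the flow cell and this replicate cannot be told apart. The difference between C5LWPANXX and C3RJFACXX was 0.64 for each of the 2 genes and did not pass (limma interaction term, adjusted p = 0.928 for both; unadjusted p = 0.00245 for S100a6 and 0.00327 for S100a10). S100a4, with differences of one sign, had a gap between the flow cells of 0.75 (unadjusted p = 0.00111, limma adjusted p = 0.928). That test has 2 residual degrees of freedom and called 0 of the 12161 genes, with 600 at an unadjusted p under 0.05. Genes of under 1 kb of exonic length had a median difference of −0.12 in the WT3 pair, 0.07 in WT691 and −0.03 in WT703, against −0.02, −0.03 and −0.02 for all genes; the part of gene length in the difference between flow cells was not tested. With the trend on length removed, the fold changes of S100a6 and S100a10 were 0.22 and 0.18 (limma adjusted p = 0.169 and 0.222).

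S100a1, a regulator of calcium handling in heart and skeletal muscle, and S100a13, which helps export FGF1 and interleukin-1α from cells, stood near each other in level and in their lack of a difference. S100a1 had log2 values of 5.43, 4.80 and 4.73 in MIG-Hhex libraries, against 5.74, 4.47 and 4.76 in MIG libraries. S100a13 had 5.40, 4.87 and 4.82 in MIG-Hhex libraries, against 5.52, 4.75 and 4.83 in MIG libraries. Both were higher in the WT3 libraries of either group than in the other 4, and their log2 fold changes were −0.00059 (95% interval −0.28 to 0.28) and −0.0042 (−0.15 to 0.14; limma adjusted p = 0.998 and 0.969). Since the 2 genes overlap on opposite strands and a strand-specific count is not given in the sources used here, reads in their shared 98 bases cannot be assigned to one of them. S100pbp was the lowest of the 9, at 3.26, 3.72 and 3.60 in MIG-Hhex libraries and 2.67, 3.59 and 3.51 in MIG libraries. Its log2 fold change was 0.27 (95% interval −0.0039 to 0.55, limma adjusted p = 0.150), and the differences were 0.59 in WT3, 0.13 in WT691 and 0.09 in WT703.

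**Figure D3:**
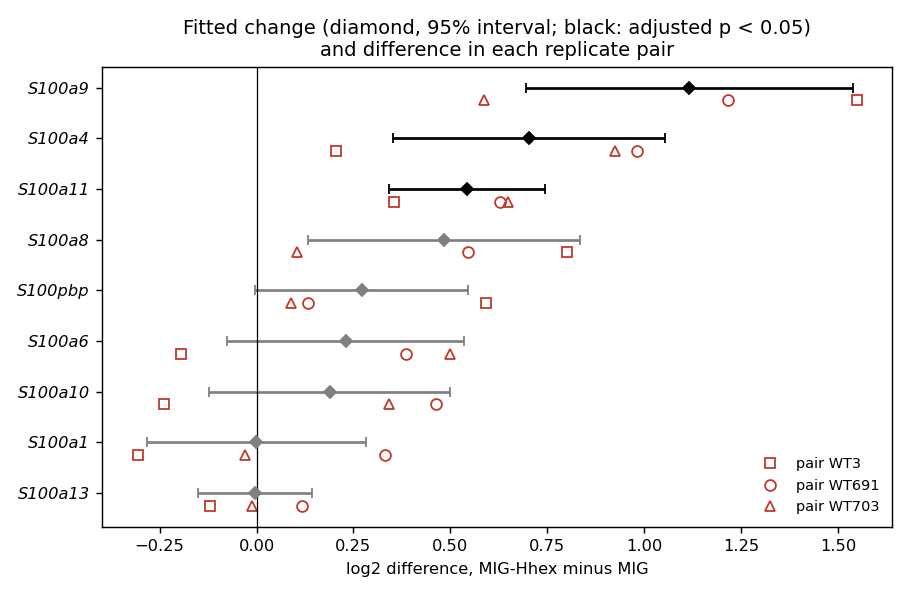
Log2 difference of MIG-Hhex minus MIG (horizontal axis) for the 9 S100 genes; diamonds give the limma estimate with its 95% interval, black where the adjusted p is under 0.05, and open symbols the difference in each replicate pair. S100a9, S100a4 and S100a11 pass, at 1.12, 0.70 and 0.54, while the WT3 pair of S100a6, S100a10, S100a1 and S100a13 lies below 0.

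In order of mean level over the 6 libraries, which can be compared between genes because the values behave as levels per unit of length, S100a8 and S100a9 led, followed by S100a4, S100a10 and S100a11, then S100a6, then S100a13 and S100a1, and last S100pbp. The ranges of S100a8 and S100a9 overlapped in both groups; S100a8 was higher in 2 of 3 MIG-Hhex libraries and in 3 of 3 MIG libraries. S100a4 lay on average 2.73 below S100a9 in MIG-Hhex libraries, where it came next, and 2.31 below it in MIG libraries, where S100a10 stood between them; the ranges of S100a9 and S100a4 did not overlap in either group. S100a4, S100a10 and S100a11 overlapped in range and changed places: S100a4 lay above S100a10 in each MIG-Hhex library, by 0.27 on average, and below it in each MIG library, by 0.25. S100a13 and S100a1 were 0.04 apart in MIG-Hhex and 0.05 apart in MIG libraries and overlapped in both.

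Among genes whose proteins bind S100 proteins or serve as their receptors, 2 annexin genes fell. The list holds 21 measured genes, of which 1 rose and 3 fell while 17 missed the threshold. Their median log2 difference was −0.09, against 9.44% higher and 8.52% lower and a median of −0.02 over all genes. Anxa1, the anti-inflammatory annexin bound by S100a11, had log2 values of 5.85, 5.38 and 5.19 in the MIG-Hhex libraries of WT3, WT691 and WT703, against 7.55, 7.41 and 7.33 in the MIG libraries. It fell 3.88-fold (log2 fold change −1.96, SE 0.10, limma adjusted p = 0.000528), without overlap. Anxa2, which S100a10 joins in a membrane complex, fell 2.18-fold (log2 fold change −1.12, SE 0.09, limma adjusted p = 0.00137), with 6.91, 6.32 and 6.24 in MIG-Hhex libraries, against 7.84, 7.61 and 7.39 in MIG libraries. Cd33, a sialic acid-binding inhibitory receptor whose human form binds S100A9, fell 3.13-fold (log2 fold change −1.64, limma adjusted p = 0.00223). These 3 falls held in all 9 left-out fits. With the replicate number as a block 5 genes of the list rose and 6 fell.

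The levels of S100a11 and S100a10 relative to these 2 annexins were higher with MIG-Hhex. S100a11 lay 2.16, 2.09 and 2.14 log2 units above Anxa1 in the MIG-Hhex libraries, against 0.10, −0.57 and −0.64 in the MIG libraries, a mean shift of 2.50. S100a10 lay 0.95, 1.22 and 1.27 above Anxa2 in the MIG-Hhex libraries, against 0.25, −0.53 and −0.22 in the MIG libraries, a mean shift of 1.31. Both sets of values were free of overlap between the groups. The groups overlapped in the 3 other combinations compared, S100a6 minus Anxa11 (mean shift −0.09), S100a6 minus Cacybp (0.59) and S100a4 minus Myh9 (0.41). All 5 were compared after the fits were seen, and no test was made. Each shift is the log2 fold change of the S100 gene less that of its partner and so is no separate result. The annexin held the larger part in both, with −1.96 for Anxa1 beside 0.54 for S100a11. For Anxa2 it was −1.12, beside 0.19 for S100a10, which did not pass.

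The other partners changed less. Myh9, the heavy chain of the non-muscle myosin that S100a4 binds, was the single gene of the list to rise, by 0.30 (SE 0.06, limma adjusted p = 0.0214; named after its value was seen), and was called in 3 of the 9 left-out fits (up to 0.128). Anxa11 and Cacybp, both bound by S100a6, missed the threshold at log2 differences of 0.32 and −0.36 (limma adjusted p = 0.0585 and 0.0614), and so did Anxa6 at 0.38 (0.0699). With the replicate block Cacybp and Anxa6 passed (limma adjusted p = 0.00674 and 0.00388), with differences of one sign in all 3 pairs. Ahnak, of the same list and named after its value was seen, had a larger difference of 0.93 but missed the threshold (SE 0.27, limma adjusted p = 0.0632). It was higher with MIG-Hhex in each pair, by 0.23, 1.05 and 1.49, although the groups overlapped. Ahnak passed with the replicate block (limma adjusted p = 0.0415) and in 3 of the 9 left-out fits. Tlr4, the receptor through which released calprotectin signals, had −0.46 (limma adjusted p = 0.0804), with 2.74, 3.02 and 2.76 in MIG-Hhex libraries, against 3.03, 3.68 and 3.20 in MIG libraries; it was lower with MIG-Hhex in each pair and passed with the replicate block (0.0191). Bsg, a further S100a9 receptor, had 0.13 (0.164). The receptor gene Ager was not analysed here.

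**Figure D4:**
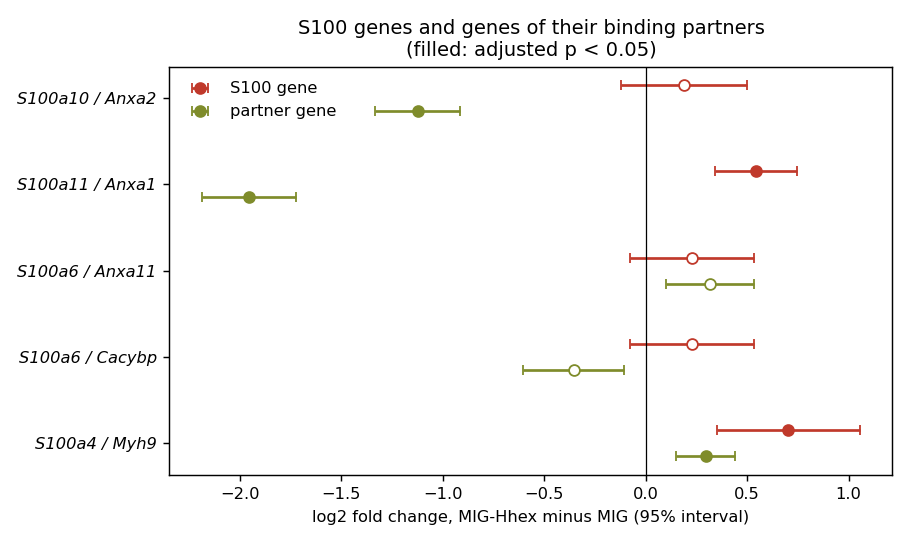
Log2 fold change of MIG-Hhex minus MIG (horizontal axis, with 95% interval) for 5 combinations of an S100 gene (red) and a gene of a protein it is known to bind (green); filled points have an adjusted p under 0.05. Anxa1 and Anxa2 lie at −1.96 and −1.12, while S100a11 and S100a10 lie at 0.54 and 0.19.

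Of the transcription factors listed as regulators of S100a8 and S100a9, all 12 were measured: 5 rose, 1 fell and 6 missed the threshold, beside 9.44% higher and 8.52% lower over all genes. Their median log2 difference was 0.29, against −0.02 over all genes. Cebpe, the C/EBP factor of late granulocyte maturation, lay at 6.69, 6.00 and 5.94 in the MIG-Hhex libraries of WT3, WT691 and WT703, against 5.48, 3.98 and 4.14 in the MIG libraries. It rose 3.19-fold (log2 fold change 1.67, SE 0.14, limma adjusted p = 0.00162). Cebpa, which starts the granulocyte programme, rose by 0.54 (limma adjusted p = 0.00509), and Cebpd, an acute phase C/EBP factor, fell to 2.50 in MIG-Hhex libraries, against 3.35 in MIG libraries (log2 fold change −0.85, limma adjusted p = 0.00851). Cebpa and Cebpd missed the threshold once replicate WT703 was removed (limma adjusted p = 0.0528 and 0.0630). For Cebpb the log2 difference was 0.31 (limma adjusted p = 0.252). The other 3 that rose, named after their values were seen, were Runx1 (0.75), Gfi1 (0.56) and Stat3 (0.21). Of the 9 left-out fits, Runx1 was called in 8, Gfi1 in 3 and Stat3 in 0 (limma adjusted p up to 0.0601, 0.113 and 0.155).

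Markers of several blood cell types moved beside the S100 genes. Of 18 measured genes of secondary and gelatinase granules and mature neutrophils, 10 rose and 4 fell, beside 9.44% higher and 8.52% lower over all genes, with a median log2 difference of 0.63. Ngp, a secondary granule protein, rose by 2.08, Cxcr2, a neutrophil chemokine receptor, by 2.03 and Ifitm6, a membrane protein, by 1.08. Of the same list, Mmp9 (gelatinase B) rose by 2.97 and Camp (cathelicidin) by 1.36, Mmp9 being called in 8 and Camp in 5 of the 9 left-out fits (limma adjusted p up to 0.0601 and 0.0889), and the log2 fold change of Mmp9 ran between 2.57 and 3.60 in them. Chil3, a chitinase-like protein, fell by 3.29. The other 3 that fell, named after their values were seen, were Fpr1 (−2.94), Mmp8 (−1.94) and Cybb (−1.62). Of the 9 left-out fits, Fpr1 was called in 2 (log2 fold changes between −3.62 and −1.97), Cybb in 3 and Mmp8 in 7. Fpr1 was also low, with means of −1.57 in MIG-Hhex and 1.38 in MIG libraries. Its log2 fold change shrank to as little as −1.26 in the other alternative fits. The summed linear level of the list was 1544 to 1984 in MIG-Hhex libraries, against 1456 to 1662 in MIG libraries. Of 8 primary granule and early granulocyte genes, 1 rose, 2 fell and 5 missed the threshold, which is to be read against the same shares. Their median log2 difference was −0.28, with 7 of the 8 negative, so the fall of Mpo does not stand for the list. The sum was 3716 to 7894 in MIG-Hhex libraries, against 6208 to 10733 in MIG libraries. Mpo, the myeloperoxidase of primary granules, fell 8.70-fold (log2 fold change −3.12), with log2 fold changes between −3.63 and −2.45 in the left-out fits, the smallest without the MIG library of WT703. S100a9, at 1.12, thus lay among the rising members of the late list, and S100a8, at 0.48, below the 10 that rose.

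The other lists are likewise to be read against the 9.44% of all genes called higher and the 8.52% called lower. Of 20 measured monocyte, macrophage and dendritic cell markers, 6 rose and 4 fell, and their sum was 647 to 2154 in MIG-Hhex libraries, against 613 to 1782 in MIG libraries; the highest of each group was WT3. Of 19 stem and multipotent progenitor genes, 0 rose (limma; 1 was higher at an unadjusted p under 0.05) and 3 fell, Meis1 by 0.79, Mllt3 by 0.57 and Hoxb4 by 0.49. Of the 9 left-out fits, Meis1 was called in 6, Mllt3 in 3 and Hoxb4 in 0 (limma adjusted p up to 0.0584, 0.179 and 0.156). The sum of the list was 1687 to 2775 in MIG-Hhex libraries, against 1890 to 2819 in MIG libraries. Among 13 erythroid markers 5 rose and 2 fell, with sums of 224 to 310 in MIG-Hhex libraries, against 216 to 299 in MIG libraries. Among 11 megakaryocyte markers 4 rose and 2 fell, with sums of 223 to 301 in MIG-Hhex libraries, against 133 to 167 in MIG libraries. Among 10 mast cell and basophil markers 3 rose and 4 fell, with sums of 1341 to 2154 in MIG-Hhex libraries, against 1109 to 1804 in MIG libraries. Among 8 eosinophil markers 2 rose and 0 fell, with sums of 63.0 to 122 in MIG-Hhex libraries, against 8.03 to 83.5 in MIG libraries. Among 7 lymphoid and NK markers 1 rose and 1 fell, with sums of 109 to 190 in MIG-Hhex libraries, against 127 to 203 in MIG libraries. Cd3e, Cd4, Cd8a and Ly6g were not analysed here. The part of these cell types in the S100 differences was not tested, and in RNA from whole populations more cells of a type cannot be told apart from more RNA per cell.

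**Figure D5:**
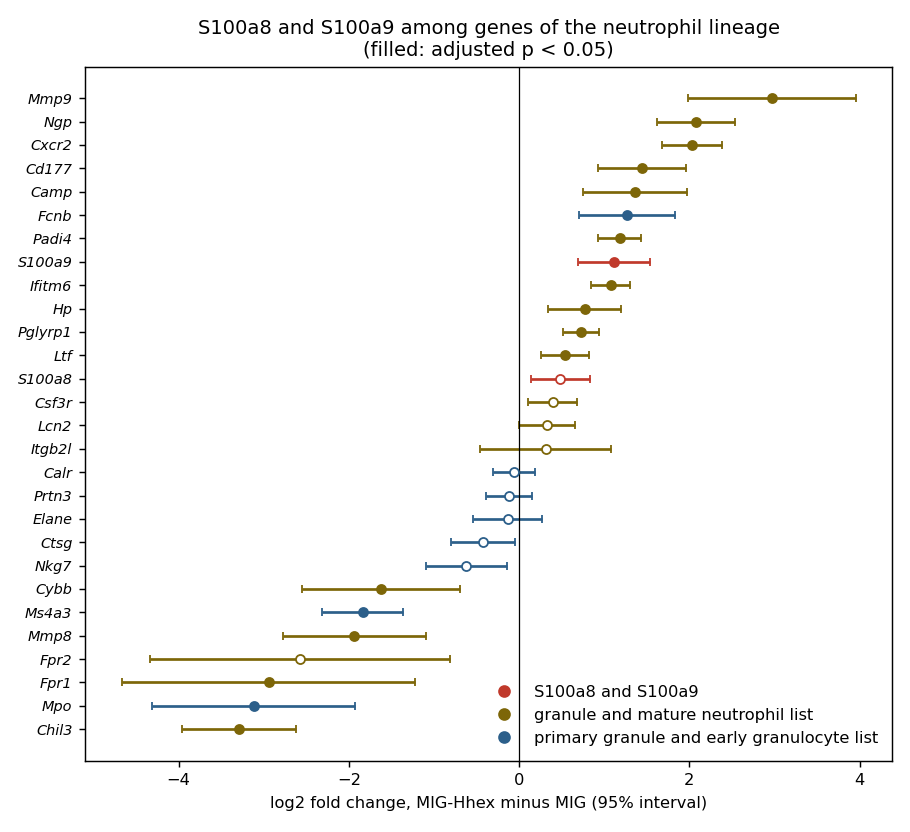
Log2 fold change of MIG-Hhex minus MIG (horizontal axis, with 95% interval) for S100a8 and S100a9 (red) among 18 granule and mature neutrophil genes (ochre) and 8 primary granule and early granulocyte genes (blue); filled points have an adjusted p under 0.05. S100a9 lies at 1.12 between Padi4 and Ifitm6, and S100a8 lies at 0.48 below Ltf.

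Few other genes beside the cluster were measured. Within 200 kb on either side of the stretch and inside it, 6 other genes were measured, all on the S100a1 side, and 0 of them lay between the S100 genes. Of the 6, 0 rose and 1 fell (limma; 0 rose at an unadjusted p under 0.05), beside 9.44% higher and 8.52% lower over all genes, with a median log2 difference of −0.03. The gene that fell was Slc27a3, a fatty acid transport protein, by 2.25 (SE 0.46, limma adjusted p = 0.0219), at low levels of −3.23 ± 0.36 with MIG-Hhex and −0.98 ± 0.86 with MIG (SD, n = 3 each). It lost its call in 7 of 9 left-out fits. Chtop, next to S100a1, and Snapin had fold changes of 0.04 and −0.03 (limma adjusted p = 0.705 and 0.801).

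The genes whose values followed those of S100a9 most closely over the 6 libraries, by root mean square difference after each gene was centred on its mean, were Lifr (0.154), Gprc5b (0.187), Adcy4 (0.193), Rnf144a (0.221) and Cd177 (0.223). In MIG libraries their mean log2 values were −0.13, −2.64, −3.23, 2.70 and 3.04, against 9.51 for S100a9. The likeness is thus one of pattern and not of level. Lifr encodes the receptor of leukaemia inhibitory factor and Cd177 a neutrophil surface protein. S100a8 itself stood 179th in that order, at 0.403. Among the closest to S100a8 were Loxl3 (0.098), Scyl2 (0.098) and Tmem154 (0.109), with MIG means of −2.34, 3.89 and 3.58, against 10.31 for S100a8. All are descriptions over 6 libraries that share the vector and flow cell differences, and of the genes named Scyl2, Tmem154, Lifr, Rnf144a and Cd177 rose by the test. Since the genes were chosen for their likeness in these same libraries, their direction was largely set by the choice and is no separate result.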

How the data were processed

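The authors deposited log2 expression values for 12161 genes, keyed by Entrez number, in 6 libraries. Tools named by the submitters' processing notes are featureCounts, Subread, edgeR and limma, and the build is mm10. Their versions, their order and the normalization: not given in the sources used here. On the linear scale, the deposited log2 values times exonic length in kb (11700 genes with a GENCODE length) have nearly the same sum in every library, as values scaled per kb and to a fixed library total would. S100a8 has the same value, 10.68, in 2 libraries. Library medians were 3.56 to 3.60. Read depth is unknown, so no counting interval is given; an overall change in RNA per cell would not be seen.

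Values were fitted with limma 3.58.1 (R 4.3.3) with terms for flow cell and vector, eBayes with a mean-variance trend, two-sided p adjusted by Benjamini-Hochberg over all genes, threshold 0.05. A filter (above the library minimum in at least 3 libraries) removed 0 genes. The fit was tested on simulated data. Deviations from the group means correlated between same-numbered libraries at 0.742 (WT3), 0.585 (WT691) and 0.656 (WT703). The same correlation was not computed between differently numbered libraries, and the WT3 libraries differ from the others in both groups. These values therefore cannot show that WT691 or WT703 pairs the libraries beyond the flow cell, and the pairs rest on the labels. Members, lists and tests were chosen with earlier results of these data known. The genes named are all S100 genes, up to 3 genes past the threshold with the smallest p in a list, genes preset for their tie to S100 proteins, and the 5 closest in pattern to S100a8 and S100a9; exceptions are marked, and a few genes meeting these criteria are not reported here. The exact permutation test used scipy 1.17.1. Alternatives were the flow cell term, replicate block, scaling, offset, filter, variance trend, flow cell and left-out libraries, and, added after seeing the data, removal of the length trend.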

Additional observations from a re-analysis of the deposited data

How the results depend on the processing

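The count of 3 higher and 0 lower S100 genes became 4 higher with the replicate block, the fourth being S100a8, 2 without the variance trend, where S100a4 missed (limma adjusted p = 0.0678), and 3 with median centring, quantile normalization, an offset of 1, a minimum mean of 0, no filter or the length trend removed. Without the flow cell term 0 were called (limma; 2 at an unadjusted p under 0.05), with adjusted p of 0.234 for S100a9, 0.246 for S100a4 and 0.478 for S100a11. Flow cell C5LWPANXX alone gave 5, adding S100a6 and S100a10. The 9 left-out fits gave 1 (without replicate WT703, S100a9 alone) to 5 (without WT3). The partner genes counted 1 higher and 3 lower; they counted 0 and 2 without the flow cell term, 0 and 3 without the variance trend, 2 and 3 on C5LWPANXX alone, and 4 and 6 with the length trend removed. Over all genes, 1148 were higher and 1036 lower, against 119 and 98 without the flow cell term, 791 and 638 without the variance trend, 698 and 519 on C5LWPANXX alone, and 355 and 270 without replicate WT703. In none of the 19 alternative fits was an S100 gene called lower, and all 7 genes with a positive fold change kept their sign, while S100a1 and S100a13 had either sign. The sign could not change in the fits without flow cell term, filter or variance trend. Nor could it with the replicate block or a minimum mean of 0. C5LWPANXX alone gave the same fold changes as the 3 fits without a WT3 library. The paired form of the S100a9 to S100a8 comparison gave the same difference of 0.63 with an exact two-sided p of 0.25, the smallest that 3 pairs allow; leaving out a library gave 0.45 to 0.81. With unknown depth, the precision of the lowest values cannot be stated.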
